A study of Mus musculus with 4 samples.

Results

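The cells described here are CD4 T cells of mouse lung without a Foxp3 transcript that carried transcripts of both Ccl5 and Nkg7. They were selected on their own counts, among cells with at least 500 detected genes, under 10% mitochondrial counts, at most 2 productive alpha chains and at most 1 productive beta chain of the T cell receptor. A cell belonged when it had 0 unique molecular identifiers (UMIs, counts of distinct captured molecules) of Foxp3, at least 1 UMI of Ccl5 and at least 1 UMI of Nkg7. Such cells numbered 282 of the 14217 cells kept from both tissues, with 101 of 7135 from tumor lung and 181 of 7082 from normal lung. They are called Ccl5+ Nkg7+ cells below. The values of Ccl5, Nkg7 and Foxp3 that chose them are given as description only.

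Tumor lung came from C57BL/6 mice 3 weeks after TC1 cells, a transplantable mouse lung tumor line, had been injected into the tail vein, and normal lung from mice of matching age. From each suspension of lung cells, live cells stained for CD4 were sorted, and a droplet method then yielded 1 library of transcripts read from their 5′ ends and 1 of T cell receptors. The labels name no genotype other than the strain and do not give the number of mice in a suspension. With 1 library of each kind per tissue there was no test and no replicate check, and tissue and library cannot be told apart. All intervals are 95% intervals and cover counting error only, as if cells and molecules were independent. The kept cells held 31921001 UMIs in tumor lung and 28084248 in normal lung, and the Ccl5+ Nkg7+ cells 567794 and 854024. Their median depth was 5243 UMIs per cell in tumor lung and 4072 in normal lung. The libraries had 86 barcodes in common, 74 of them kept in both, and no barcode was a Ccl5+ Nkg7+ cell in both. No paired receptor occurred in both tissues.

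Ccl5 encodes a chemokine that attracts T cells and myeloid cells, and Nkg7 a membrane protein of cytotoxic granules that takes part in their release. Cytotoxic CD4 T cells can kill through perforin and granzymes, proteases delivered into the target cell. In mouse lung, effector T cells that stay in the blood vessels carry the fractalkine receptor CX3CR1 and the sphingosine phosphate receptor S1PR5, whereas resident cells carry CXCR6, the integrin CD103 (Itgae) and CD69. A T cell receptor joins an alpha and a beta chain, each with a CDR3 loop spelled by the rearranged gene, so that cells with the same pair descend from 1 ancestor in nearly all cases. On assembly GRCm38.p6 the selecting and label genes lie at chr11:83525778-83530518 (Ccl5), chr7:43437138-43438246 (Nkg7), chrX:7579676-7595243 (Foxp3), chr13:113093824-113100981 (Gzma), chr9:120048683-120068296 (Cx3cr1) and chr9:21242917-21248443 (S1pr5).

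The CDR3 sequences of the largest clones are shown because a few of them supplied much of the effector transcripts of normal lung. A clone here is a set of Foxp3-zero cells with the same productive alpha and beta V genes and CDR3 nucleotides. Each sequence runs 5′ to 3′, and capitals mark the bases between the first 9 and the last 9, where the joined segments and added bases lie. The alpha chain locus is on chromosome 14 and the beta chain locus on chromosome 6. Tumor clone 1 used TRAV14-1 with TRBV16, tumor clone 2 TRAV8N-2 with TRBV2, normal clone 1 TRAV9-1 with TRBV26, normal clones 2 and 3 TRBV2, and normal clone 5 TRAV13N-1 with TRBV20.
Tumor clone 1 alpha: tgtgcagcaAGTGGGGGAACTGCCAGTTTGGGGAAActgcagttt
Tumor clone 1 beta: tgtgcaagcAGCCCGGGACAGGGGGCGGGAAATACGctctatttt
Tumor clone 2 alpha: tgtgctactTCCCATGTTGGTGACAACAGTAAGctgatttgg
Tumor clone 2 beta: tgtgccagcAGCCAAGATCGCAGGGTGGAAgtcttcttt
Normal clone 1 alpha: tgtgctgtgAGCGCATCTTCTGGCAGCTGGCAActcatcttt
Normal clone 1 beta: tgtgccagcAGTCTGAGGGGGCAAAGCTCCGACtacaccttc
Normal clones 2 and 3 beta: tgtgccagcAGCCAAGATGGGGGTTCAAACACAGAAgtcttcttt
Normal clone 2 second alpha: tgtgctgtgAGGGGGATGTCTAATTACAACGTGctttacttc
Normal clone 5 alpha: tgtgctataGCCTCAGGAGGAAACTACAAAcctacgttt
Normal clone 5 beta: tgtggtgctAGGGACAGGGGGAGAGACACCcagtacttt
Normal clones 2 and 3 had the same beta chain down to the base and were counted apart only because the cells of clone 2 had a second alpha chain, with TRAV9D-3.

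The cells were T cells by their transcripts, and each single gene behind the name cytotoxic was detected in a minority of them. Cd3e, a subunit of the receptor complex, was detected in 99 of the 101 tumor cells and 177 of the 181 normal cells, and Cd4 in 82 and 126. Gzma, which encodes granzyme A, was detected in 15 tumor cells (14.9%, 8.56 to 23.3) and 49 normal cells (27.1%, 20.7 to 34.2). Cx3cr1 was detected in 5 tumor cells (4.95%) and 72 normal cells (39.8%), and S1pr5 in 1 tumor cell (0.990%) and 54 normal cells (29.8%). Prf1, which encodes perforin, was seen in 3 tumor cells (2.97%) and 24 normal cells (13.3%), against 7.49% and 4.90% of naive cells, so that in tumor lung its detection was at background. At least 1 of Gzma, Cx3cr1 and S1pr5 was detected in 18 tumor cells (17.8%) and 93 normal cells (51.4%), and at least 1 of the granzyme genes Gzma, Gzmb and Gzmk in 53 (52.5%) and 90 (49.7%). Naive cells, taken as Foxp3-zero cells with a UMI each of Ccr7 and Lef1, serve as background here. Gzma, Cx3cr1 and S1pr5 were detected in 0.370%, 0.277% and 0% of 4327 naive cells of tumor lung and 0.281%, 0.0527% and 0.0176% of 5689 of normal lung. Klrg1, Zeb2, Gzmb, Gzmk and Cxcr6 were each detected in 0% to 0.647% of naive cells of either tissue. The median depth of naive cells was 4217 UMIs in tumor lung and 3975 in normal lung.

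Defining markers of other lineages were rare or at 0, while some of the listed markers were more frequent than in the other Foxp3-zero cells. At least 1 of 8 natural killer cell genes was detected in 6.93% of tumor cells and 8.29% of normal cells, against 0.612% and 0.597% of the other Foxp3-zero cells. At least 1 of the listed B cell genes was detected in 6.93% of tumor cells and 1.10% of normal cells, against 1.00% and 0.597% of the others. For genes of gamma-delta and innate-like T cells the shares were 5.94% and 0.552%, against 1.58% and 0.986%. Cst3, of the myeloid list, was detected in 49.5% of tumor cells and 34.3% of normal cells, against 23.3% and 21.9% of the others. The part of these transcripts in the results below was not tested. Ncr1 and Tyrobp, which mark natural killer cells, were detected together in 2 tumor cells and 1 normal cell, all 3 with a Cd4 UMI. A paired receptor was found in 1 of these 2 tumor cells and not in the normal cell. Cd8a and Trdc, the constant segment of the delta chain, were at 0 UMIs in the Ccl5+ Nkg7+ cells of both tissues. Cd8b1 was detected in 6 tumor cells (5.94%) and 2 normal cells (1.10%), against 5.55% and 6.24% of naive cells, so that its detection was not beyond background. The alpha chain TRAV11 with TRAJ18 of invariant natural killer T cells occurred in 1 cell of each tissue. Lyz2 of myeloid cells, Ms4a1 of B cells and the 4 hemoglobin genes examined were at 0 in both tissues.

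Ccl5+ Nkg7+ cells took a smaller share of tumor lung CD4 T cells than of normal lung CD4 T cells. They made up 1.42% of kept cells in tumor lung (1.15 to 1.72) and 2.56% in normal lung (2.20 to 2.95), a ratio of 0.554 (0.430 to 0.710). Among Foxp3-zero cells alone, which number fewer in tumor lung, the shares were 1.69% of 5988 and 2.63% of 6876, a ratio of 0.641 (0.497 to 0.822). With cells thinned to 2417 UMIs they were 1.23% in tumor lung and 2.34% in normal lung. That count left out 393 tumor cells and 708 normal cells with fewer UMIs. Naive cells gave 19 of 4346 (0.437%) in tumor lung and 17 of 5706 (0.298%) in normal lung with both UMIs. The direction depended on leaving out Foxp3-positive cells, since all cells with a Ccl5 and an Nkg7 UMI, whatever their Foxp3, made up 3.01% of tumor lung and 2.60% of normal lung, a log2 ratio of 0.21 (-0.08 to 0.51).

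The gap between the tissues was smaller when each clone was counted once. When 1 cell was counted per clonotype, the cell with most UMIs, 65 of 5479 clonotypes in tumor lung (1.19%) and 91 of 5338 in normal lung (1.70%) were represented by a Ccl5+ Nkg7+ cell, a ratio of 0.696 (0.498 to 0.967). With any such cell in the clonotype the counts were 71 and 95 and the ratio 0.728 (0.528 to 1.00). Over clonotypes of Foxp3-zero cells the shares were 1.43% in tumor lung and 1.75% in normal lung, and the interval of their ratio of 0.814 ran from 0.586 to 1.13. A lower share of clonotypes in tumor lung was therefore not detectable once Foxp3-positive cells were left out of the denominator.

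**Figure D1:**
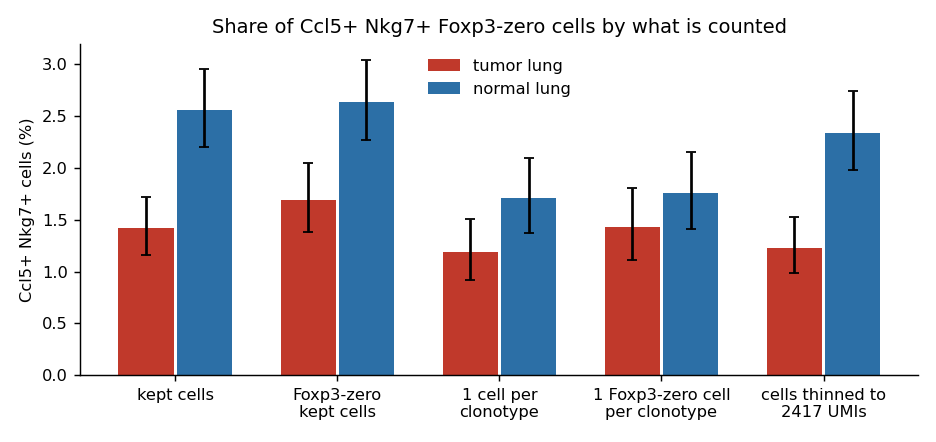
Share of Ccl5+ Nkg7+ Foxp3-zero cells in percent (bars, with exact 95% binomial intervals) in tumor lung and normal lung for 5 ways of counting. The tumor lung bar is the lower in each pair, and the gap narrows from 1.42% against 2.56% of kept cells to 1.43% against 1.75% of Foxp3-zero clonotypes.

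The cells of the tissues differed in how much of the selecting transcripts they held. Tumor lung cells had a median of 7 Ccl5 UMIs (quartiles 3 and 26, highest 108) and normal lung cells a median of 40 (quartiles 14 and 81, highest 290). Nkg7 had a median of 3 UMIs in tumor lung cells and 7 in normal lung cells. At the edge of the selection, 34 tumor cells and 18 normal cells had a single UMI of Ccl5 or of Nkg7. Just outside it lay 114 tumor cells and 56 normal cells with Ccl5 but no Nkg7 UMI, and 79 and 63 with Nkg7 but no Ccl5 UMI. Gzma was detected in 4 of the 34 and 0 of the 18 at the edge, and in 4 of the 114 and 0 of the 56 with Ccl5 alone. Tumor lung thus had more cells near the threshold, and asking for 2 UMIs of each gene left 67 tumor cells (0.939%) and 163 normal cells (2.30%).

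Set against the other Foxp3-zero cells of the same tissue, the Ccl5+ Nkg7+ cells carried an effector profile in both. The following ratios describe cells selected on 2 genes of that profile. Gzma was 70.2-fold higher than in the other cells of tumor lung and 818-fold in normal lung. Ly6c2, a surface protein of effector T cells, was 46.3-fold and 78.2-fold higher. Ifng, the Th1 cytokine interferon gamma, was 30.3-fold and 88.6-fold higher, and Tbx21, which encodes the Th1 transcription factor T-bet, 29.4-fold and 99.2-fold. Gzmk, another granzyme gene, was 26.8-fold and 115-fold higher. The remaining genes with the largest smaller ratio were Ifitm1, Anxa1, Lgals3, Serpinb9, Serpina3g, Entpd1, Pclaf and 1500009L16Rik besides Ccl5 and Nkg7 themselves. Ifitm1 rested on 7 tumor cells and 5 normal cells, with 40 UMIs in 1 cell of each tissue. Genes of naive cells were lower than in the other cells, with Igfbp4 14.6-fold lower in tumor lung and 15.7-fold lower in normal lung, and Dapl1 8.76-fold and 23.9-fold lower.

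The Ccl5+ Nkg7+ cells of tumor lung held lower levels of most genes listed for circulating effector cells than those of normal lung. Of 16 genes listed for circulating effector cells, 13 had at least 50 UMIs in the higher library, and 10 of these were at least 2-fold lower in tumor lung and 0 at least 2-fold higher, with a median log2 ratio of -1.89. Over all 2653 genes with that many UMIs in these cells, 99 (3.73%) were at least 2-fold lower and 109 (4.11%) at least 2-fold higher in tumor lung, with a median of -0.10. The listed genes summed to 1923 CPM (UMIs scaled to the same total in each library) in tumor cells and 4764 CPM in normal cells. A UMI of at least 1 of them was found in 94.1% of tumor cells and all normal cells. The sums in the other Foxp3-zero cells were 1712 CPM in tumor lung and 2398 CPM in normal lung. Of those cells 98.0% and 99.3% had such a UMI, so the share does not set the Ccl5+ Nkg7+ cells apart. In the other Foxp3-zero cells 2 of the 13 were at least 2-fold higher in tumor lung, with a median of -0.12. Those cells had 73 of the 2653 genes (2.75%) past 2-fold on the side of tumor lung and 0 (0%) on the side of normal lung, so that an absence of lower genes in those cells tells nothing about a single list. Itgam and Adgrg1 were at 0 UMIs in both tissues.

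Cx3cr1, the fractalkine receptor, had 9 UMIs in 5 tumor cells and 132 UMIs in 72 normal cells, and its level in CPM was 9.75-fold higher in normal lung (4.98 to 21.8). S1pr5 had 3 UMIs, all in 1 tumor cell, and 103 UMIs in 54 normal cells, 22.8-fold higher in normal lung (7.60 to 112). Zeb2, a transcription factor of terminal effector cells, had 8 UMIs in 6 tumor cells and 96 in 62 normal cells, 7.98-fold higher in normal lung (3.89 to 19). Klrg1, a lectin-like receptor of the same cells, had 20 UMIs in 8 tumor cells and 304 in 78 normal cells, 10.1-fold higher in normal lung (6.43 to 16.8). All 4 genes were thus detected in few tumor cells. Whether more tumor cells expressed them weakly was not tested, since counts this low cannot show it. Plek (3.95-fold), Slamf7 (3.72-fold), Itgb1 (2.18-fold) Klf2 (4.12-fold, 3.44 to 4.96), a transcription factor that drives egress from tissue, and its relative Klf3 (3.32-fold) were also higher in normal lung, whereas Ly6c2 stood at 472 CPM in tumor lung and 470 CPM in normal lung. In cells thinned to equal depth Cx3cr1 was detected in 1.05% of tumor cells and 28.9% of normal cells, and S1pr5 in 1.05% and 24.1%. Cells under 2417 UMIs, 6 in tumor lung and 15 in normal lung, were left out there. They included Cx3cr1-positive cells of both tissues, among them tumor cells of 1506 and 1759 UMIs. These shares thus reflect the loss of shallow cells as well as equal depth.

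Within normal lung the circulating genes were detected in part of the cells. A UMI of Cx3cr1 or S1pr5 was found in 5 tumor cells (4.95%, 1.63 to 11.2) and 84 normal cells (46.4%, 39.0 to 54.0). A UMI of Cxcr6 or Itgae, both genes of resident cells, was also found in 1 of these 5 tumor cells and 18 of these 84 normal cells, against 51 of all 181 normal cells (28.2%). The pairs of genes thus did not exclude each other. Cells with Cxcr6 or Itgae and neither of the circulating genes numbered 45 in tumor lung (44.6%, 34.7 to 54.8) and 33 in normal lung (18.2%, 12.9 to 24.6), and 51 (50.5%) and 64 (35.4%) had none of the 4. Counted by clonotype, 2 of 71 in tumor lung (2.82%) and 31 of 95 in normal lung (32.6%, 23.4 to 43.0) had a cell with Cx3cr1 or S1pr5.

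**Figure D2:**
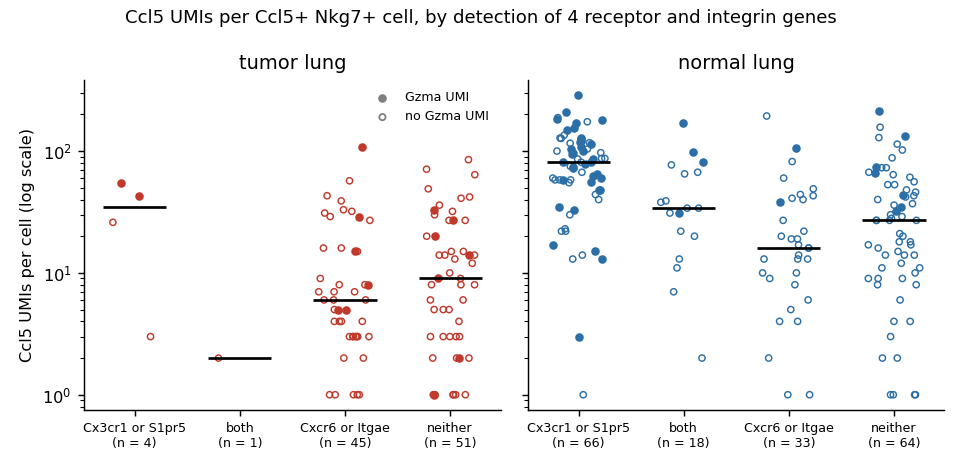
Ccl5 UMIs per Ccl5+ Nkg7+ cell on a log scale, for cells with a UMI of Cx3cr1 or S1pr5 only, of both gene pairs, of Cxcr6 or Itgae only, or of none of the 4, in tumor lung (left) and normal lung (right). Each point is 1 cell, filled where Gzma was detected, and lines are medians; the first class holds 4 tumor cells and 66 normal cells, and most filled points of normal lung lie in it.

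Some genes of tissue residency were higher in the tumor lung cells. Of 7 residency genes with enough UMIs, 3 were at least 2-fold higher in tumor lung and 0 lower, against 4.11% of all 2653 genes higher. Their median log2 ratio was 0.64 in these cells and 0.80 in the other Foxp3-zero cells. In those other cells 3 of the 7 were at least 2-fold higher as well, so the list moved no further in the Ccl5+ Nkg7+ cells. Ccr8, a chemokine receptor, had 91 UMIs in 38 tumor cells and 15 UMIs in 11 normal cells, 9.12-fold higher in tumor lung (5.25 to 17.0). It was 3.85-fold higher in the other Foxp3-zero cells. Cd69, which holds lymphocytes in tissue by blocking S1PR1, had 258 UMIs in 74 tumor cells and 157 in 80 normal cells, 2.47-fold higher (2.02 to 3.03). Rgs1, a regulator of chemokine receptor signalling, was 2.18-fold higher (1.91 to 2.48). Cxcr6 was detected in 43 tumor cells (42.6%) and 51 normal cells (28.2%), and its level was 1.56-fold higher (1.19 to 2.03). At equal depth it was detected in 30.5% of tumor cells and 18.1% of normal cells.

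Cytotoxic genes did not move together. Of 10 granule and secretion genes with enough UMIs, Gzmb, Gzmk and Ctsw were at least 2-fold higher in tumor lung and Gzma and Fasl at least 2-fold lower, with a median log2 ratio of 0.09. With 1 cell per clonotype Gzmb was still past 2-fold in tumor lung and Gzma in normal lung, whereas Gzmk (1.79-fold), Ctsw (1.81-fold) and Fasl (1.96-fold) were not. Over all 2653 genes 4.11% were at least 2-fold higher in tumor lung and 3.73% lower. Of the 10 genes 3 were also higher and 0 lower in the other Foxp3-zero cells, with a median of 0.38. Gzmb was detected in 1.41% of those cells in tumor lung and 0.179% in normal lung. Gzma had 87 UMIs in 15 tumor cells, 44 of them in 1 cell, and 1220 UMIs in 49 normal cells, with 113 in the highest. Its level was 153 CPM in tumor lung (123 to 189) and 1429 CPM in normal lung (1349 to 1511), 9.32-fold higher in normal lung. A positive cell held a median of 1 Gzma UMI in tumor lung and 13 in normal lung, and at equal depth 7.37% of tumor cells and 26.5% of normal cells were positive. The cells left out there for low depth included tumor cells with 16 and 3 Gzma UMIs and normal cells with 8 and 2. Gzmb, which encodes granzyme B, had 171 UMIs in 31 tumor cells and 113 UMIs in 39 normal cells, 2.28-fold higher in tumor lung (1.78 to 2.91). The highest tumor cells held 27, 27 and 18 of these Gzmb UMIs, and the highest normal cell 16. Gzmk had 96 UMIs in 26 tumor cells and 67 in 34 normal cells, 2.16-fold higher in tumor lung (1.56 to 2.99). Among cells with 5 or more Ccl5 UMIs the log2 ratio of Gzmk was 0.49, against 1.11 in all the cells. Ctsw, a cathepsin of cytotoxic cells, was 2.14-fold higher in tumor lung (1.75 to 2.62), and Fasl, the ligand of the death receptor Fas, 2.46-fold higher in normal lung (1.85 to 3.32). Prf1 had 3 UMIs in tumor cells and 26 in normal cells, 5.76-fold higher in normal lung (1.77 to 29.7). Srgn, the granule proteoglycan, differed by 1.18-fold.

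In normal lung Gzma belonged to the Cx3cr1 or S1pr5 cells. They held 1167 of its 1220 UMIs (95.7%) and 40 of its 49 positive cells. In tumor lung the 2 Gzma-positive cells among the 5 with Cx3cr1 or S1pr5 held 60 of 87 UMIs (69.0%). Cells of normal lung with Cxcr6 or Itgae only had 16 Gzma UMIs in 2 of 33 cells, and those of tumor lung 8 UMIs in 6 of 45 cells. Without the cells with Cx3cr1 or S1pr5 the log2 ratio of Gzma between the tissues was -1.22, against -3.22 with them, and that of Klrg1 -2.04, against -3.34. In tumor lung Gzmb had 41 UMIs (164 CPM) in 14 of 45 cells with Cxcr6 or Itgae only (31.1%). It had 124 UMIs (427 CPM) in 16 of 51 cells with none of the 4 genes (31.4%). Single cells held 27, 27 and 18 of those 124 UMIs, so the gap in CPM rested on a few cells.

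**Figure D3:**
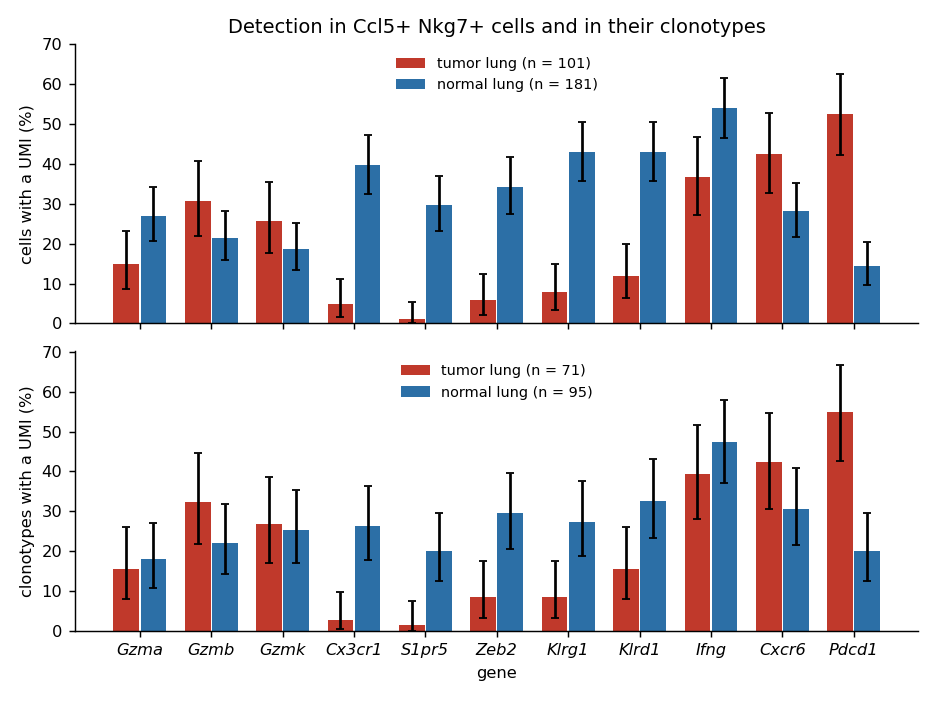
Percent of Ccl5+ Nkg7+ cells (top) and of their clonotypes with any positive Ccl5+ Nkg7+ cell (bottom) in which each of 11 genes was detected, for tumor lung and normal lung, with exact 95% binomial intervals. Gzma was detected in 14.9% and 27.1% of cells and in 15.5% and 17.9% of clonotypes, with overlapping intervals, while the intervals of Cx3cr1, S1pr5, Zeb2, Klrg1 and Pdcd1 do not overlap in either panel.

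Clonal expansion was common in these cells in both tissues. A productive alpha and beta chain were found in 81 tumor cells, which formed 71 clonotypes, and 140 normal cells, which formed 95. Of the paired cells, 24 in tumor lung (29.6%, 20.0 to 40.8) and 63 in normal lung (45.0%, 36.6 to 53.6) shared their receptor with another Foxp3-zero cell. Among the other Foxp3-zero cells this held for 1.12% of 4728 in tumor lung and 2.46% of 5169 in normal lung. Without the largest clone of each tissue the shares were 26.0% in tumor lung and 33.0% in normal lung. Cells of a clone are not independent, and the difference between the tissues in these shares was not tested.

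Normal clone 1 held 25 Ccl5+ Nkg7+ cells among its 27 Foxp3-zero cells, which was 17.9% of the paired cells of normal lung. Of the 25, 18 had a UMI of Cx3cr1, 15 of S1pr5, 22 of Klrg1, 13 of Cxcr6 and 7 of Gzma, and 0 had a UMI of Pdcd1. Normal clones 2 and 3, which share the TRBV2 chain printed above, held 7 and 4 cells, and Cx3cr1 was detected in all 11. Their Gzma counts were 158 and 113 UMIs. Normal clone 5 held 3 cells, all positive for Gzma, Cx3cr1, S1pr5, Zeb2 and Klrg1, with 232 Gzma UMIs and 170 to 290 Ccl5 UMIs per cell. The 5 largest clones of normal lung, 42 cells or 30.0% of the paired cells, held 579 of 1220 Gzma UMIs (47.5%), 59 of 132 Cx3cr1 UMIs (44.7%) and 173 of 304 Klrg1 UMIs (56.9%).

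The clones of tumor lung were smaller and looked otherwise. Tumor clone 1 held 4 Ccl5+ Nkg7+ cells among 6 Foxp3-zero cells, all 4 with Cxcr6, 3 with Gzmb and 0 with Gzma, Cx3cr1, S1pr5 or Klrg1. Tumor clone 2 held 3 such cells among 4, all with Cxcr6 and Ifng, 2 with Gzmk (17 UMIs) and 1 with Cx3cr1. Tumor clone 3 held 3 cells, 2 of them with Cxcr6. By the beta chain alone the largest clones were 5 cells in tumor lung and 27 and 11 in normal lung. Of the clonotypes with a Ccl5+ Nkg7+ cell, 4 of 71 in tumor lung and 1 of 95 in normal lung also had a Foxp3-positive cell.

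Within normal lung, cells of clones carried the circulating genes more often than cells whose receptor was seen once. Cx3cr1 was detected in 39 of 63 clone cells (61.9%, 48.8 to 73.9) and 15 of 77 single cells (19.5%, 11.3 to 30.1). Klrg1 was detected in 43 clone cells (68.3%) and 14 single cells (18.2%), and Gzma in 25 (39.7%) and 8 (10.4%). In tumor lung Cx3cr1 was detected in 1 of 24 clone cells and 1 of 57 single cells. Cxcr6 was detected there in 15 clone cells (62.5%, 40.6 to 81.2) and 21 single cells (36.8%, 24.4 to 50.7), with overlapping intervals. Cells of a clone are not independent, and the largest clones weigh on each of these shares.

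**Figure D4:**
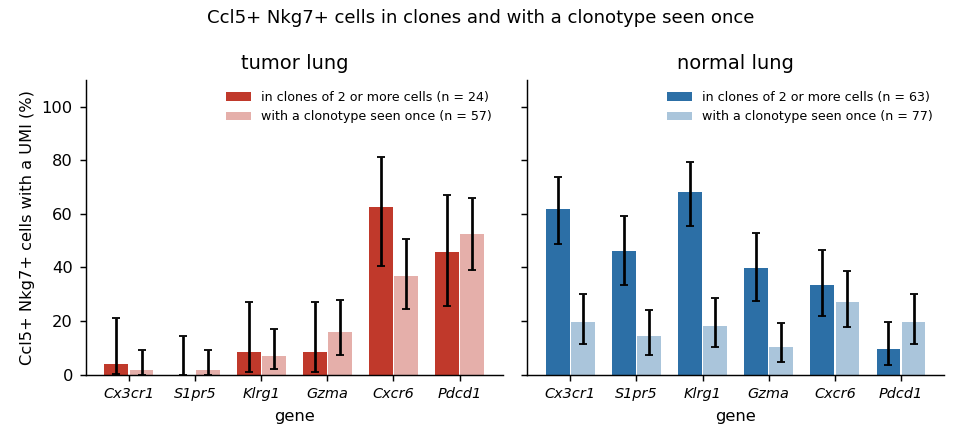
Percent of Ccl5+ Nkg7+ cells with a UMI of each of 6 genes, with exact 95% binomial intervals, for cells in clones of 2 or more cells (dark) and cells with a clonotype seen once (light) in tumor lung (left) and normal lung (right). Cx3cr1, S1pr5, Klrg1 and Gzma stand higher in the clone cells of normal lung, and Cxcr6 and Pdcd1 are the genes detected most in tumor lung.

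Taking 1 cell per clonotype kept the direction of the 24 genes with the most extreme ratios but reduced some of them. Of the 109 genes at least 2-fold higher in tumor lung 90 stayed so, and of the 99 lower 71. S1pr5 was then 7.18-fold higher in normal lung in place of 22.8-fold, Klrg1 3.59-fold in place of 10.1-fold, Gzma 6.16-fold in place of 9.32-fold and Zeb2 4.15-fold in place of 7.98-fold, while Cx3cr1 was 9.20-fold higher in place of 9.75-fold. On the side of tumor lung Ifitm3 was 18.3-fold higher in place of 47.9-fold and Isg20 8.17-fold in place of 14.3-fold. By detection, Gzma was found in 11 of 71 clonotypes in tumor lung (15.5%, 8.0 to 26.0) and 17 of 95 in normal lung (17.9%, 10.8 to 27.1). The clonotype counts leave out cells without a paired receptor, among them 4 Gzma-positive tumor cells with 21 UMIs and 16 normal cells with 440 UMIs.

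Th1 genes, the programme of interferon gamma producing helper cells, were on balance lower in the tumor lung cells. Of 12 such genes with enough UMIs, 5 were at least 2-fold lower and 1 at least 2-fold higher in tumor lung, with a median log2 ratio of -0.78. The shares over all 2653 genes were 3.73% lower and 4.11% higher. With 1 cell per clonotype 2 were lower and 1 higher, with a median of -0.47. In the other Foxp3-zero cells 3 of the 12 were higher, with a median of 0.65. Ifng had 86 UMIs in 37 tumor cells and 319 in 98 normal cells, 2.47-fold higher in normal lung (1.94 to 3.17). Tbx21 was 2.31-fold higher in normal lung (1.68 to 3.22), and the interleukin receptor genes Il12rb2 and Il18rap were 3.09-fold and 4.63-fold higher there. Cxcr3, the receptor for interferon-induced chemokines, was 1.72-fold higher in tumor lung. With 1 cell per clonotype Ifng (1.44-fold), Il12rb2 (1.33-fold) and Tbx21 (1.98-fold) were no longer past 2-fold in normal lung.

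Killer-cell lectin receptors are carried by natural killer and effector T cells. At least 1 listed gene was detected in 27.7% of tumor cells and 61.9% of normal cells, against 8.10% and 9.69% of the other Foxp3-zero cells. All 4 genes with enough UMIs were at least 2-fold higher in normal lung, against 3.73% of all 2653 genes. Klrd1 had 27 UMIs in 12 tumor cells and 216 in 78 normal cells, 5.32-fold higher in normal lung (3.56 to 8.26). Klrd1 was detected in 11.9% of tumor cells and 43.1% of normal cells, against 6.82% and 9.84% of naive cells, so that its detection in tumor lung stood near the background. Klrc1, which encodes an inhibitory partner of the Klrd1 product, was 8.26-fold higher (3.84 to 21.2), and Klrk1, which encodes the activating receptor NKG2D, 5.69-fold (2.85 to 12.9). Among chemokine receptors Ccr2 was 2.80-fold higher in normal lung, while Ccr7 was 2.08-fold higher in tumor lung with 62 of its 137 tumor UMIs in 1 cell. Dtx1, a ubiquitin ligase gene of the Notch pathway, was 5.67-fold higher in normal lung, with detection in 15 tumor cells and 111 normal cells. Unc5cl (5.38-fold) and Ifitm10 (4.93-fold) completed the 12 genes with the largest ratio on the side of normal lung.

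Nearly all genes induced by interferon that could be compared were higher in the tumor lung cells. Of 21 listed genes, 16 had enough UMIs, and 15 of these were at least 2-fold higher in tumor lung and 0 lower. Their median log2 ratio was 2.49, and 4.11% of all 2653 genes were higher. In the other Foxp3-zero cells 11 of the 16 were 2-fold higher and the median was 1.39, so the direction was shared by CD4 T cells outside the group. Ifitm3, which restricts virus entry, had 223 UMIs in 28 tumor cells and 7 UMIs in 3 normal cells, 47.9-fold higher in tumor lung (22.9 to 121). Ifit3 had 202 UMIs in 44 tumor cells and 9 in 5 normal cells, 33.8-fold higher (17.4 to 74.9), and Isg20, an exonuclease gene, 199 UMIs in 54 tumor cells and 21 in 13 normal cells, 14.3-fold higher (9.07 to 23.5). A tumor cell had UMIs of a median of 9 of the 21 genes (quartiles 5 and 15) and a normal cell of 4 (quartiles 2 and 5). At least 5 of them were detected in 81 tumor cells (80.2%) and 56 normal cells (30.9%), against 39.0% and 14.3% of the other Foxp3-zero cells. These counts per cell were not taken at equal depth. The median depth was 5243 UMIs in tumor cells and 4072 in normal cells, against 4102 and 3902 in the other Foxp3-zero cells. Ifit1, Rsad2, Rtp4, Mx1 and Phf11c, all induced by interferon, were 15.7-fold, 11.7-fold, 9.39-fold, 9.02-fold and 8.69-fold higher in tumor lung. Cxcl10, a chemokine gene induced by interferon, was 6.21-fold higher (3.91 to 10.3).

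Several inhibitory receptors and a few costimulatory ones of activated T cells were higher in the tumor lung cells. Of 4 inhibitory receptor genes with enough UMIs, 3 were at least 2-fold higher in tumor lung and 0 lower, against 4.11% of all 2653 genes higher. Their median log2 ratio was 2.10 in these cells and 1.14 in the other Foxp3-zero cells. Pdcd1, which encodes PD-1, had 223 UMIs in 53 tumor cells (52.5%, 42.3 to 62.5) and 42 UMIs in 26 normal cells (14.4%, 9.60 to 20.3), 7.99-fold higher (5.72 to 11.4), against 2.87% and 1.23% of naive cells with a UMI. Ctla4, a brake on CD28 signalling, had 353 UMIs in 76 tumor cells and 79 in 36 normal cells, 6.72-fold higher (5.25 to 8.69), and Tigit was 2.73-fold higher. Of 11 costimulatory genes, Tnfrsf4 (OX40), Tnfrsf9 (4-1BB) and Tnfrsf18 (GITR) were at least 2-fold higher and 0 lower, against the same 4.11%. Cd28, Cd2 and Icos differed by 1.08-fold, 1.12-fold and 1.16-fold, and the ratios of Cd40lg and Slamf1 were 0.85 and 0.80. Tnfrsf4 had 187 UMIs in 54 tumor cells and 23 in 17 normal cells, 12.2-fold higher (7.91 to 19.8) and 1.88-fold higher in the other Foxp3-zero cells. Tnfrsf9 had 89 UMIs in 20 tumor cells and 15 in 13 normal cells, 8.92-fold higher (5.13 to 16.6). In the other Foxp3-zero cells Tnfrsf9 was 9.70-fold higher in tumor lung and Pdcd1 5.90-fold, so a higher summed level was not particular to the Ccl5+ Nkg7+ cells. Naive cells were 4327 of 5887 of those other cells in tumor lung and 5689 of 6695 in normal lung. The part of this make-up in their ratios was not tested.

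Listed genes of regulatory T cells were also higher in the tumor lung cells, although Tnfrsf9 and Ctla4 belong to the receptor lists as well. All 5 regulatory T cell genes with enough UMIs, Tnfrsf9, Ctla4, Ikzf2, Izumo1r and Capg, were at least 2-fold higher in tumor lung, against 4.11% of all 2653 genes. In the other Foxp3-zero cells 3 of the 5 were, with a median log2 ratio of 1.30. The 9 listed genes found in the files summed to 1393 CPM in tumor cells and 266 CPM in normal cells, with Foxp3 at 0 by selection, and 32 tumor cells (31.7%) and 14 normal cells (7.73%) had a UMI of Il2ra, Ikzf2 or Lrrc32. Without those cells, 69 tumor cells (0.967% of kept cells) and 167 normal cells (2.36%) were left, and Pdcd1, Ctla4 and Tnfrsf4 had log2 ratios of 3.14, 2.60 and 3.73, against 3.00, 2.75 and 3.61 with all cells. The log2 ratio of Tnfrsf9 was 2.04 there, against 3.16, and that of Ccr8 2.62, against 3.19, with 40 of its 91 tumor UMIs left. This selection was made after seeing the data. Gzmk and Ly6c2 were detected in 26 and 36 of the 101 Ccl5+ Nkg7+ cells of tumor lung, and in 1 and 1 of 114 Foxp3-positive tumor cells with a Ccl5 and an Nkg7 UMI. Ctla4, Tnfrsf4 and Pdcd1 were frequent in both groups, in 76, 54 and 53 of the 101 and in 112, 113 and 88 of the 114. In how many cells a Foxp3 transcript was present and missed was not tested.

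**Figure D5:**
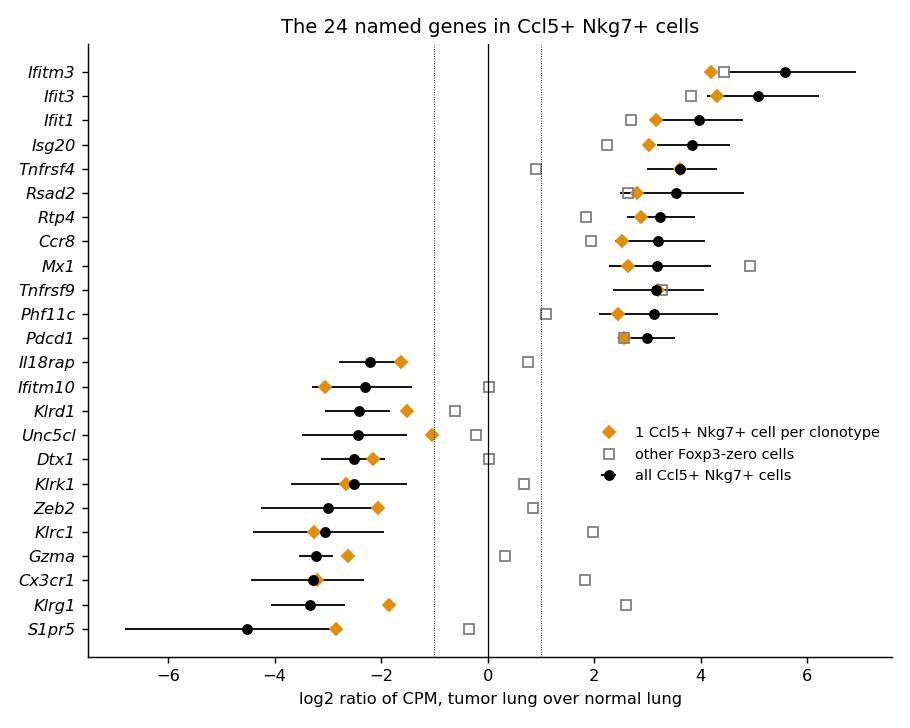
Log2 ratio of CPM, tumor lung over normal lung, of 24 genes in Ccl5+ Nkg7+ cells, 12 at each extreme of the ratio (circles, with exact 95% intervals), with 1 such cell per clonotype (diamonds) and in other Foxp3-zero cells (squares, S1pr5 set at a floor of 3 counts in tumor lung). Dotted lines mark a 2-fold difference; the diamonds keep the side of the circles for all 24 genes. None of the 2653 genes compared was 2-fold higher in normal lung in the other Foxp3-zero cells, so no square lies past the left line.

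Most genes of the other groups differed by less than 2-fold. Of 9 CD4 T cell genes, 8 naive and lymph node homing genes, 18 memory and effector genes, 16 immediate early genes and 2 proliferation genes with enough UMIs, 0, 1, 1, 2 and 0 were at least 2-fold higher in tumor lung and 0, 1, 3, 0 and 0 at least 2-fold lower. The median log2 ratios of these groups were 0.01, -0.10, 0.08, 0.13 and -0.54. Of all 2653 genes 4.11% were at least 2-fold higher and 3.73% lower. The counts of the naive, memory and immediate early groups lay above those shares in at least 1 direction. The naive and homing genes past 2-fold were Ccr7, higher in tumor lung, and Klf2, lower there. The memory genes lower in tumor lung were Ahnak, Anxa1 and Lgals1, none of them past 2-fold with 1 cell per clonotype (1.99-fold, 0.983-fold and 1.72-fold higher in normal lung), and the 1 higher was Ly6a, itself induced by interferon, at 4.25-fold (3.70 to 4.88). The immediate early genes higher in tumor lung were Zfp36 (2.61-fold) and Nfkbia (2.25-fold), and Fos differed by 1.05-fold (0.885 to 1.23). Il7r, the receptor for the survival cytokine interleukin 7, was detected in 76 tumor cells and 83 normal cells and was 1.57-fold higher in tumor lung (1.33 to 1.86).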

How the data were processed

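Raw UMI counts per gene and barcode were deposited for cells already called; per the file headers they came from Cell Ranger 3.1.0, and per the submitters' processing notes the genome was mm10. The receptor tables deposited by the authors gave contigs with V and J genes and CDR3 sequences; the receptor reference is not given in the sources used here. Cells with at least 500 genes, under 10% mitochondrial UMIs, at most 2 productive alpha and at most 1 productive beta chain were kept, which left out 120 and 533 barcodes of the tumor library and 61 and 602 of the normal library. The receptor filter was the one step against doublets. No cell type annotation was used. A few genes and 1 receptor sequence are not reported here.

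Counts were summed over the Ccl5+ Nkg7+ cells of a library and divided by their total (CPM). Ratios have exact conditional intervals, shares Clopper-Pearson intervals, and a library at 0 was set to 3 counts. Genes entered where the higher library held 50 UMIs or more, and were called at 2-fold. Named genes were the 5 label genes, the 12 largest and 12 smallest ratios with a UMI in at least 20 cells (without receptor, immunoglobulin, mitochondrial, ribosomal, hemoglobin and sex-linked genes), the 15 with the largest smaller ratio over other Foxp3-zero cells, and examples of each list. Members and lists were chosen with earlier results of these data known. The ratio was tested on simulated counts. Of 31053 gene identifiers 30934 were found in the table of gene names for GRCm38.p6. Python 3.11.15, numpy 2.4.6, scipy 1.17.1 and pandas 2.3.3 were used.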

Additional observations from a re-analysis of the deposited data

Results flagged for a closer look

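Cells that the selection left out for their Foxp3 UMIs also carried Ccl5 and Nkg7. Of 1147 Foxp3-positive cells of tumor lung, 114 (9.94%, 8.27 to 11.8) had a UMI of each gene, and of 206 in normal lung 3 (1.46%, 0.301 to 4.20), a ratio of 6.82 (2.28 to 33.6). These cells lie outside the comparison and carried the selecting transcripts more often in tumor lung. Gzmb, Klrg1 and Itgae were detected in 31, 8 and 9 of the 101 Ccl5+ Nkg7+ cells of tumor lung, and in 74 (64.9%), 73 (64.0%) and 47 (41.2%) of the 114. Cx3cr1 was detected in 6 of the 114 and S1pr5 in 0.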

How the results depend on the processing

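The share of the cells in tumor lung against normal lung (log2 ratio -0.85) became 0.21 without a condition on Foxp3, which is a reversal. It moved to -1.29 with 2 or more UMIs of each gene, to -1.37 with 5 or more Ccl5 UMIs, and to -1.29 without cells with a UMI of Il2ra, Ikzf2 or Lrrc32, an alternative chosen after seeing the data. Of the 51 alternatives to these counts and shares 41 stayed within the interval or within 1.5 times the count. The 99 genes at least 2-fold lower in tumor lung became 39 with 1 cell per clonotype and, chosen after seeing the data, 43 without cells with Cx3cr1 or S1pr5 of 1508 and 1710 genes with enough UMIs in place of 2653. The genes at least 2-fold higher numbered 81 and 110 there, against 109, and the cause was not tested. With a minimum of 20 UMIs the counts were 265 higher and 302 lower, and with 100 UMIs 57 and 51, as more or fewer genes entered. Of 442 alternative values for named genes 395 stayed within the interval of the main ratio, 47 moved and 0 changed direction from past 2-fold. Among those that moved were Ifitm3, S1pr5, Klrg1, Klrd1 and Ifng with 1 cell per clonotype. Leaving out cells with Ncr1 or Tyrobp UMIs gave 113 higher and 103 lower. No paired analysis was possible because each tissue had 1 library, and for the same reason no library could be left out. Ratios on under 10 UMIs in a library, as for S1pr5, Cx3cr1, Zeb2, Ifitm3 and Ifit3, have wide intervals, and the 101 tumor cells limit every share.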
